A study of Mus musculus with 6 samples.

Results

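The genes described here are 9 rows of a deposited count table of 23079 genes: 4 cytochrome b5 reductases (Cyb5r1, Cyb5r2, Cyb5r3 and Cyb5r4), the mitochondrial cytochrome b5 gene Cyb5b, and 4 carbonyl reductases of the short-chain dehydrogenase family (Dcxr, Cbr1, Cbr3 and Cbr4). They were chosen by symbol because Cyb5r2 and Dcxr were much higher in the knockdown than at their low control level, so the comparison of the groups helped to choose them. Their fold changes are therefore a description and support nothing by themselves. The tested group was 3 libraries from midbrain dopaminergic neurons of mice injected with adeno-associated virus (AAV1) carrying a short hairpin RNA against Satb1, and the control group was 3 libraries after the same virus with a scrambled hairpin. Both constructs also carried EGFP, and all mice had the C57BL/6 background, the Dat bacTRAP transgene, a tagged ribosomal protein placed in cells that use the dopamine transporter promoter, and an age of 4 months. The submitters counted 3 mice in all without tying a library to a mouse, and named total RNA with no ribosome capture step, so the p-values below cover only the spread between these libraries. The promoter behind the hairpin is not given, the sample titles call it siRNA, and no label says whether a library holds the ventral tegmental area or the substantia nigra pars compacta, which were cut out apart.

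Cytochrome b5 is a small heme protein that hands single electrons to enzymes in the membranes of the endoplasmic reticulum and of mitochondria. Its reductases are flavoproteins that pass electrons from NADH to it, and the pair serves fatty acid desaturases, sterol synthesis and the reduction of hydroxylated amines. Carbonyl reductases use NADPH to turn aldehydes, ketones and quinones into alcohols and hydroquinones, a kind of chemistry that matters for dopamine neurons because dopamine oxidises to quinones.

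Library totals lay between 147486754 and 170351145 counts, so that 1 count was worth 0.00557 to 0.00672 CPM (the count scaled to its library's total and by the trimmed mean of M-values, TMM). Satb1 itself, a chromatin organiser, stood at 82.9, 166 and 61.2 CPM in knockdown libraries 1 to 3, against 351, 349.6 and 319.8 CPM in control libraries 1 to 3 (log2 fold change -1.72 ± 0.26, SE; edgeR adjusted p = 0.00106). All 3 knockdown libraries lay below the lowest control. The defining dopamine markers Th and Slc6a3 were abundant, at means of 2410 and 2731 CPM in the knockdown against 3507 and 4489 CPM in the control. The summed level of 10 oligodendrocyte markers was 636.4 to 719 CPM in the knockdown against 403 to 472 CPM in the control, with 8 of 10 called higher. Ranges were 492 to 609.7 against 463 to 567.8 CPM for 10 astrocyte markers, 24.9 to 32.5 against 25.5 to 27.2 CPM for 10 microglia markers, and 5.45 to 15.4 against 7.06 to 9.87 CPM for 10 vessel markers. Single genes carried much of the astrocyte and microglia sums and differed in direction. Slc1a2 fell to 177 CPM in the knockdown, against 245 CPM in the control, and P2ry12 to 13.8 against 18.9 CPM. Aldoc, the most abundant astrocyte marker in the knockdown, averaged 293 CPM there, against 237 CPM in the control, and was not called. All of these were chosen after their values were seen. In each of these 2 lists 9 of 10 markers had a log2 fold change above 0, with medians of 0.57 and 1.04, against 0.60 for oligodendrocyte and -0.44 for dopamine neuron markers. S100b and Aqp4 of the astrocyte list and Csf1r of the microglia list were called higher. Slc1a2 of the astrocyte list and P2ry12 of the microglia list were called lower (edgeR adjusted p = 0.00549 and 0.0251), as were 6 of 10 dopamine neuron markers. The same calls were made for 8.48% of all tested genes in the higher and 12.6% in the lower direction. The number of astrocyte markers called higher was 6 with total counts and 1 without knockdown library 3, and edgeR called 0 without control library 3 or knockdown library 1 (4 and 5 at an unadjusted p under 0.05), DESeq2 3 and limma-voom 2. For microglia markers DESeq2 called 4 higher and limma-voom 1, and edgeR 0 to 4 when 1 library was left out, with 2 to 4 at an unadjusted p under 0.05. Slc1a2 was called lower in each of the 13 alternatives. The call for P2ry12 was lost with total counts, without any 1 control library and without knockdown library 1 or 3. In those cases 1 microglia marker was lower at an unadjusted p under 0.05, and DESeq2 and limma-voom each called 1 lower. No defining marker of these cell types was at 0 in either group: Mbp averaged 132 against 85.7 CPM, Gfap 10.1 against 7.13 CPM, Aif1 1.10 against 0.547 CPM and Cldn5 0.299 against 0.198 CPM. Their part in the results below was not tested, and in such bulk libraries fewer cells of a type and less RNA per cell cannot be told apart.

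All 9 genes passed the filter on low counts, and 4 were called in the edgeR quasi-likelihood fit over 16766 genes at a Benjamini-Hochberg adjusted p under 0.05: Cyb5r2, Dcxr and Cbr4 were higher and Cyb5r3 was lower. The same call was made for 21.1% of all tested genes, 8.48% in the higher and 12.6% in the lower direction, or 1421 and 2115 genes, which became 2770 and 972 genes with total counts in place of TMM. All 3 knockdown libraries lay above all 3 control libraries for Cyb5r2, Dcxr, Cbr3 and Cbr4, which held for 17.9% of tested genes, and below them for Cyb5r3, which held for 20.8%, or 38.7% for both directions. Because the comparison chose the set, nothing is read from these shares. The median log2 fold change of the 9 genes was 0.35, against 0.01 over all tested genes.

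**Figure D1:**
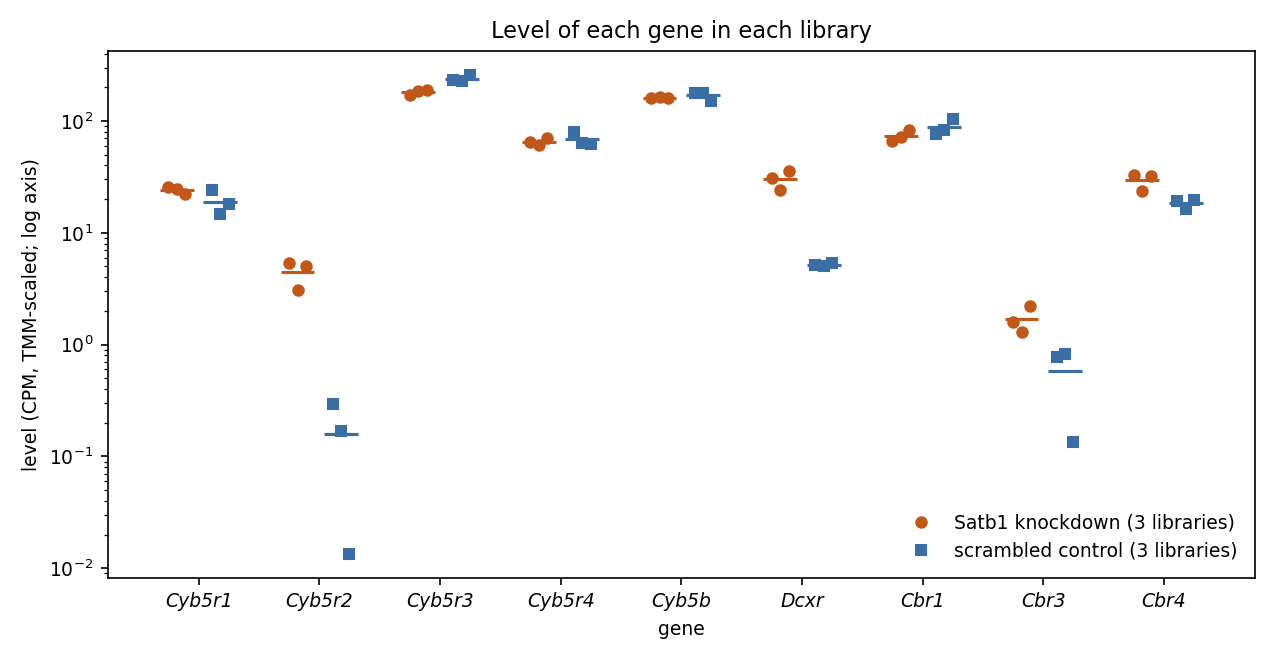
Level of each of the 9 genes in CPM on a log axis, with the 3 Satb1 knockdown libraries (circles) left of the 3 scrambled control libraries (squares) and the group means as lines. Cyb5r2 and Dcxr stand apart by the widest margins (means of 4.49 against 0.159 CPM and of 30.3 against 5.17 CPM), and control library 3 is far below the other controls for Cyb5r2 and Cbr3.

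Cyb5r2, the least abundant reductase of its family here, showed the largest difference. It had 5.33, 3.08 and 5.07 CPM in knockdown libraries 1 to 3 (956, 473 and 807 counts), against 0.295, 0.169 and 0.0134 CPM in control libraries 1 to 3 (48, 26 and 2 counts). The lowest knockdown library was 10.4 times the highest control library. The mean was 4.49 ± 1.23 CPM in the knockdown and 0.159 ± 0.141 CPM in the control (SD, n = 3 each). On the log2 scale the fold change was 4.80 ± 0.64 (SE), and 22 of the 16766 tested genes had a larger one. The size of the ratio rests on very few control counts: the 2 counts of control library 3 have an exact 95% Poisson interval of 0.242 to 7.23 counts, and the 48 counts of control library 1 one of 35.4 to 63.6, so that the controls differed beyond counting error. Leaving out 1 library at a time gave log2 fold changes between 4.27, without control library 3, and 5.600, without control library 1. Control library 3 fell short of the low-count filter's minimum of 10 counts. The control libraries by themselves would not have passed the gene, which passed with the help of its knockdown libraries.

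The Cyb5r2 gene (identifier 320635) occupies chr7:107748446-107758202 of the GRCm38 (mm10) assembly, on the minus strand. Its longest coding transcript has 2772 bases in 9 exons. Its exons share 129 bases, 4.65% of the total, with those of Ppfibp2 on the opposite strand, a liprin family gene. Where strand was not used in counting, reads of those bases cannot be told apart. Ppfibp2 had 5.76, 3.50 and 3.64 CPM in the knockdown against 3.70, 3.07 and 3.45 CPM in the control, a log2 fold change of 0.34 ± 0.25 (SE) that was not called (edgeR adjusted p = 0.386). Control library 3 held 513 counts of Ppfibp2 beside the 2 counts of Cyb5r2. The next gene of the count table on the other side, Ovch2, 23342 bases away, was listed at 0 counts in all 6 libraries.

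The RefSeq sequences of 250 bases before the start of Cyb5r2 and of Dcxr are shown because these genes differed most between the groups, and that of Cyb5r4 because it alone held the core of the antioxidant response element. They come from GRCm38.p6, at chr7:107758033-107758282 on the minus strand for Cyb5r2, chr11:120727285-120727534 on the minus strand for Dcxr and chr9:87021779-87022028 on the plus strand for Cyb5r4, and each runs 5′ to 3′ on the strand of its gene. Capitals mark matches to TGACNNNGC, the antioxidant response element core, CACGTG, an E-box, or CCAAT, all searched on both strands.
Cyb5r2: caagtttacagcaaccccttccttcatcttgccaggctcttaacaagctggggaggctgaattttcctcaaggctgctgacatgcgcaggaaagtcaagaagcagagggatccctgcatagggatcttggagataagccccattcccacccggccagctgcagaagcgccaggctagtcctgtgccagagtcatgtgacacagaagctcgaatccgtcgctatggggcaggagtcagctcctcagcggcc
Dcxr: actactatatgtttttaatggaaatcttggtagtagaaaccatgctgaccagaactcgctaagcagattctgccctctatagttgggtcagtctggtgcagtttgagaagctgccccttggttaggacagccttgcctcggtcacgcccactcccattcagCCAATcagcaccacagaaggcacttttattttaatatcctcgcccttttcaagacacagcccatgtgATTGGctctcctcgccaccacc
Cyb5r4: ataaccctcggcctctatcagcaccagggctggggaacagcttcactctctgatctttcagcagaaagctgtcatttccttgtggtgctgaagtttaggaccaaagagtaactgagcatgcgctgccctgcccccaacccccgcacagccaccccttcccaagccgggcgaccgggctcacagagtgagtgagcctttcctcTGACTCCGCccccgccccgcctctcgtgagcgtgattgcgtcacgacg
The window of Cyb5r2 held none of these letters, and the annotated spans of Cyb5r2 and Cyb5r4 reach into their windows, so positions are counted from the transcript start that ends each window. The window of Dcxr held CCAAT at 89 to 85 bases before the start and its reverse complement at 22 to 18 bases before it. Cyb5b also held a pair of such matches, so that CCAAT was found for 2 of the 8 members with a RefSeq window. Among 21294 windows of genes in the table, 35.3% held CCAAT, 10.8% TGACNNNGC and 6.84% CACGTG. The TGACNNNGC match of Cyb5r4 lay 48 to 40 bases before that start, and no member held CACGTG. The GC content of the windows was 56.4% for Cyb5r2 and 48.8% for Dcxr, against a median of 56.0% over all windows. A match is a description of letters and not evidence of binding, and these windows hold no measurement of Satb1 binding.

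Cyb5r3 encodes the main NADH-cytochrome b5 reductase, whose membrane form serves lipid synthesis and whose soluble form keeps hemoglobin reduced in red cells. It was the most abundant of the 9 genes in both groups and was lower in the knockdown. Its level was 169, 187 and 188 CPM in knockdown libraries 1 to 3, against 232, 228 and 259 CPM in control libraries 1 to 3. No knockdown library reached the lowest control library. The log2 fold change was -0.40 ± 0.09 (SE), from means of 181.5 ± 10.7 CPM in the knockdown and 239.6 ± 17.2 CPM in the control (SD, n = 3 each). The call was lost with total counts in place of TMM, where the value was -0.23, and without knockdown library 1, where it was -0.345. Exons of Cyb5r3 share 243 bases, 5.65% of the total, with the antisense gene Gm49463.

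Cyb5r1, a membrane-bound relative of Cyb5r3, had 25.9, 24.6 and 22.1 CPM in knockdown libraries 1 to 3, against 24.3, 14.8 and 17.9 CPM in control libraries 1 to 3. The groups overlapped through control library 1, and the log2 fold change of 0.35 ± 0.16 (SE) was not called. Without control library 1 it was 0.56, and with total counts in place of TMM it was 0.52, and in both cases it was called. Cyb5r4 encodes a soluble reductase that carries its own cytochrome b5 domain and whose loss in mice leads to diabetes. It had 64.6, 61.5 and 70.5 CPM in the knockdown, against 79.3, 63.8 and 62.5 CPM in the control, with a log2 fold change of -0.06 ± 0.11 (SE).

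Cyb5b is the electron acceptor of the set, the cytochrome b5 of the outer mitochondrial membrane. Its level was 160.4, 164 and 160.1 CPM in knockdown libraries 1 to 3, against 178, 177 and 152 CPM in control libraries 1 to 3, with a log2 fold change of -0.06 ± 0.09 (SE). For Cyb5r4 and Cyb5b the groups overlapped, neither was called, and both turned positive, at 0.10, with total counts in place of TMM, as did that of Cyb5r4 without control library 1. That scaling moved the median over all tested genes to 0.18, against 0.01 with TMM, so every value of the set moved up with it.

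Dcxr encodes dicarbonyl and L-xylulose reductase, an enzyme of the uronate cycle that also reduces reactive dicarbonyls. It had 30.9, 24.1 and 35.8 CPM in knockdown libraries 1 to 3, against 5.13, 5.005 and 5.37 CPM in control libraries 1 to 3. The controls were nearly level with each other, and the lowest knockdown library was 4.495 times the highest of them. The mean was 30.3 ± 5.84 CPM in the knockdown and 5.17 ± 0.186 CPM in the control (SD, n = 3 each), a ratio of 5.86, with a log2 fold change of 2.55 ± 0.16 (SE). Of the tested genes, 130 had a larger log2 fold change. The 13 alternatives gave 2.43 to 2.72. Knockdown library 2 had the lowest Dcxr of its group.

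The Dcxr gene (identifier 67880) occupies chr11:120724546-120727284, also on the minus strand, and its longest coding transcript has 892 bases in 8 exons. None of its exons overlaps another annotated gene. Among the genes of the count table, it sits between Rac3, a small GTPase gene 577 bases away, and Cbr2, a tetrameric carbonyl reductase gene 2201 bases away. Rac3 was lower, with 15.1, 15.3 and 15.9 CPM in the knockdown against 21.1, 21.1 and 20.6 CPM in the control (log2 fold change -0.44 ± 0.12, SE; edgeR adjusted p = 0.0168). That call was lost with total counts (-0.27) and without control library 2 or knockdown library 1. Cbr2 had 28, 15 and 36 counts in the knockdown against 14, 0 and 2 counts in the control, and its log2 fold change of 2.23 ± 1.23 (SE) was not called (edgeR adjusted p = 0.23). The longest run of bases shared by the transcripts of Dcxr and Cbr2 was 16 bases.

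Cbr1 encodes the cytosolic carbonyl reductase that reduces quinones, prostaglandins and anthracyclines. It had 66.0, 72.6 and 82.5 CPM in knockdown libraries 1 to 3, against 76.3, 82.5 and 104 CPM in control libraries 1 to 3. The groups overlapped, with knockdown library 3 close to control library 2. The log2 fold change was -0.25 ± 0.13 (SE) and was not called, whereas the fit with the replicate number as a block called it at -0.24. Cbr3 is the close paralog of Cbr1, and among the genes of the count table it is next to it on chromosome 16, at a distance of 72870 bases. Cbr3 had 1.58, 1.31 and 2.24 CPM in knockdown libraries 1 to 3, against 0.781, 0.818 and 0.134 CPM in control libraries 1 to 3.

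The groups did not overlap for Cbr3, but control library 3 held 20 counts (exact 95% Poisson interval 12.2 to 30.9) where control libraries 1 and 2 held 127 and 126. The log2 fold change of 1.56 ± 0.59 (SE) was not called by edgeR, and it was called by DESeq2 at 1.58, by limma-voom at 1.88 and with a filter of at least 1 CPM at 1.60. Leaving out 1 library at a time gave 1.09, without control library 3, to 1.90. The transcripts of Cbr1 and Cbr3 share a run of 50 bases, the longest between any 2 members or with Cbr2. How reads with several alignments were treated is not given in the sources used here, so the low counts of Cbr3 beside an abundant Cbr1 are uncertain. Cbr4 encodes a mitochondrial enzyme that in human cells forms the ketoacyl reductase of mitochondrial fatty acid synthesis with HSD17B8. Its level was 32.6, 23.7 and 32.1 CPM in knockdown libraries 1 to 3, against 19.1, 16.2 and 19.7 CPM in control libraries 1 to 3. All knockdown libraries were above all controls, and the log2 fold change was 0.68 ± 0.14 (SE).

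**Figure D2:**
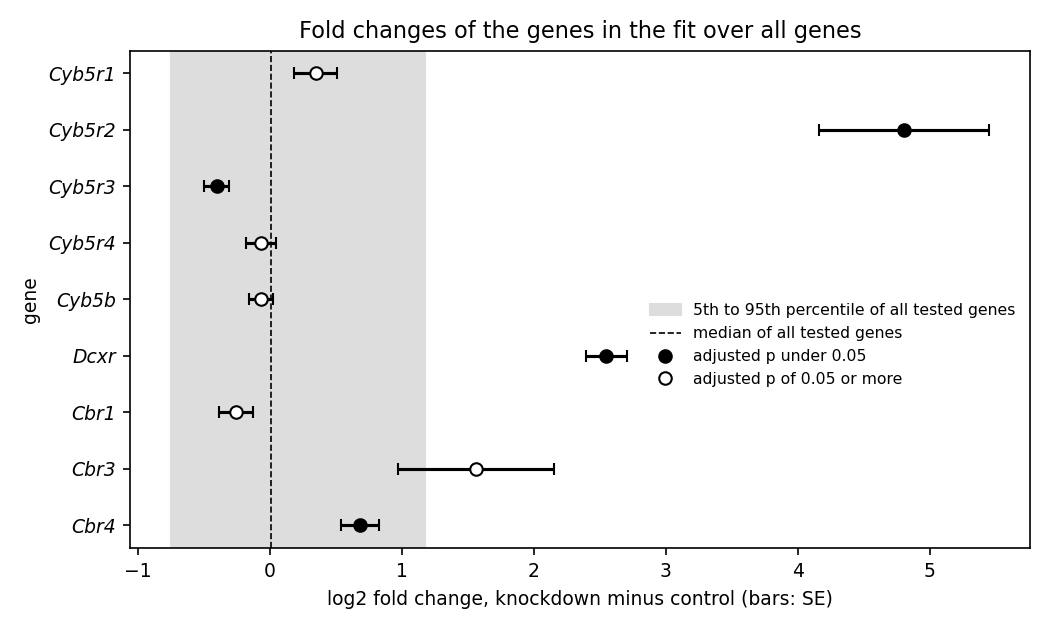
Log2 fold change of each gene (points, bars for 1 SE), knockdown minus control, with filled points for genes called at an adjusted p under 0.05, the grey band for the 5th to 95th percentile of the 16766 tested genes (-0.74 to 1.18) and the dashed line for their median. Cyb5r2 (4.80), Dcxr (2.55) and the uncalled Cbr3 (1.56) lie outside the band, and the other genes lie within it.

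Divided by the length of the longest coding transcript, the levels can be set against each other. In the knockdown the order was Cyb5r3 (71.2 ± 4.21 CPM per kb), Cbr1 (59.6 ± 6.71), Cyb5b (37.4 ± 0.536), Dcxr (34.0 ± 6.54), Cyb5r4 (24.8 ± 1.73), Cyb5r1 (13.2 ± 1.04), Cbr4 (6.84 ± 1.17), Cyb5r2 (1.62 ± 0.444) and Cbr3 (1.46 ± 0.408; SD, n = 3). In the control it was Cyb5r3 (94.1 ± 6.75 CPM per kb), Cbr1 (70.9 ± 12.03), Cyb5b (39.2 ± 3.49), Cyb5r4 (25.9 ± 3.54), Cyb5r1 (10.4 ± 2.61), Dcxr (5.80 ± 0.209), Cbr4 (4.25 ± 0.439), Cbr3 (0.494 ± 0.329) and Cyb5r2 (0.0574 ± 0.0509; SD, n = 3). Dcxr thus stood above Cyb5r4 and Cyb5r1 in the knockdown and below both in the control. In the knockdown the libraries of Cyb5r3 and Cbr1 overlapped, as did those of Cyb5b and Dcxr and those of Cyb5r2 and Cbr3. Within each knockdown library, however, Cyb5r3 stood above Cbr1 (66.4 against 53.4, 73.5 against 58.7 and 73.8 against 66.7 CPM per kb). Cyb5b was below Dcxr in knockdown library 3 only, and Cyb5r2 was above Cbr3 in knockdown library 1 only, so the order of these pairs varied. In the control no 2 neighbours in the order overlapped. Among 15452 tested genes with a transcript length, Dcxr lay at the 86.9th percentile in the knockdown and the 53.0th in the control, and Cyb5r2 at the 31.0th and the 5.25th.

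Shares within a library do not depend on the scaling between libraries. Dcxr made up 35.8%, 29.3% and 34.5% of the summed per-length level of the 4 carbonyl reductases in knockdown libraries 1 to 3, against 7.94%, 7.31% and 6.33% in control libraries 1 to 3. Cbr1 made up 58.7 ± 4.38% in the knockdown and 86.9 ± 1.86% in the control (SD, n = 3 each). The sum of the 4 genes was 101.8 ± 12.6 CPM per kb in the knockdown and 81.5 ± 12.03 CPM per kb in the control, and the groups overlapped, since control library 3 (95.1) exceeded knockdown library 2 (92.4). Among the 4 cytochrome b5 reductases, Cyb5r2 made up 1.80%, 0.998% and 1.60% in knockdown libraries 1 to 3, against 0.0793%, 0.05004% and 0.00359% in control libraries 1 to 3. Cyb5r3 made up 64.3 ± 1.99% in the knockdown and 72.2 ± 3.94% in the control (SD, n = 3 each). Cyb5r2 had the smallest share of its family in every library of both groups, and Dcxr had the second largest share of its own in every library, after Cbr1. The sum of the 4 reductases was 110.8 ± 3.77 CPM per kb in the knockdown and 130.4 ± 7.56 CPM per kb in the control.

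**Figure D3:**
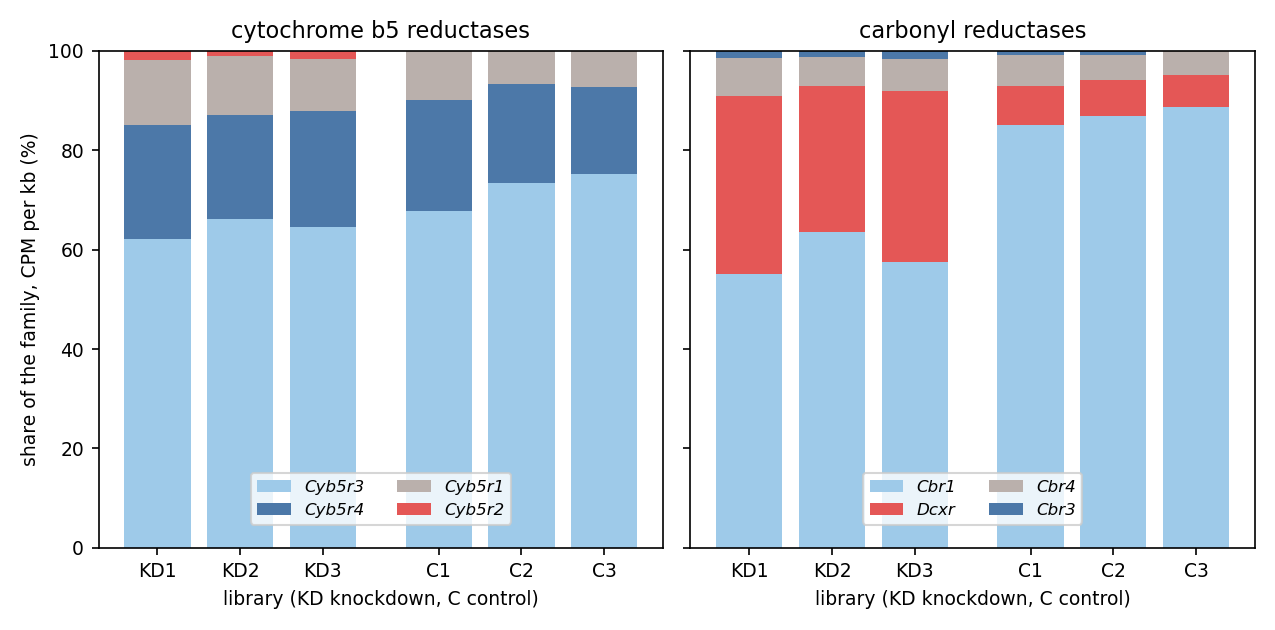
Share of each gene in the summed CPM per kb of its family (percent, stacked), for knockdown libraries (KD1 to KD3) left of control libraries (C1 to C3). Dcxr takes 29.3% to 35.8% of the carbonyl reductase level in the knockdown against 6.33% to 7.94% in the control, and Cyb5r2 stays at or under 1.80% of the reductase level in every library.

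The direction of Cyb5r2, Dcxr, Cbr3 and Cbr4 was the same in all 13 alternatives, and Cyb5r2, Dcxr and Cbr4 were called in each. Cbr4 ranged from 0.60 to 0.86. Of 117 values, 13 alternatives for each of 9 genes, 109 fell on the same side of the threshold as reported, 2 lost a call and 6 gained one.

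**Figure D4:**
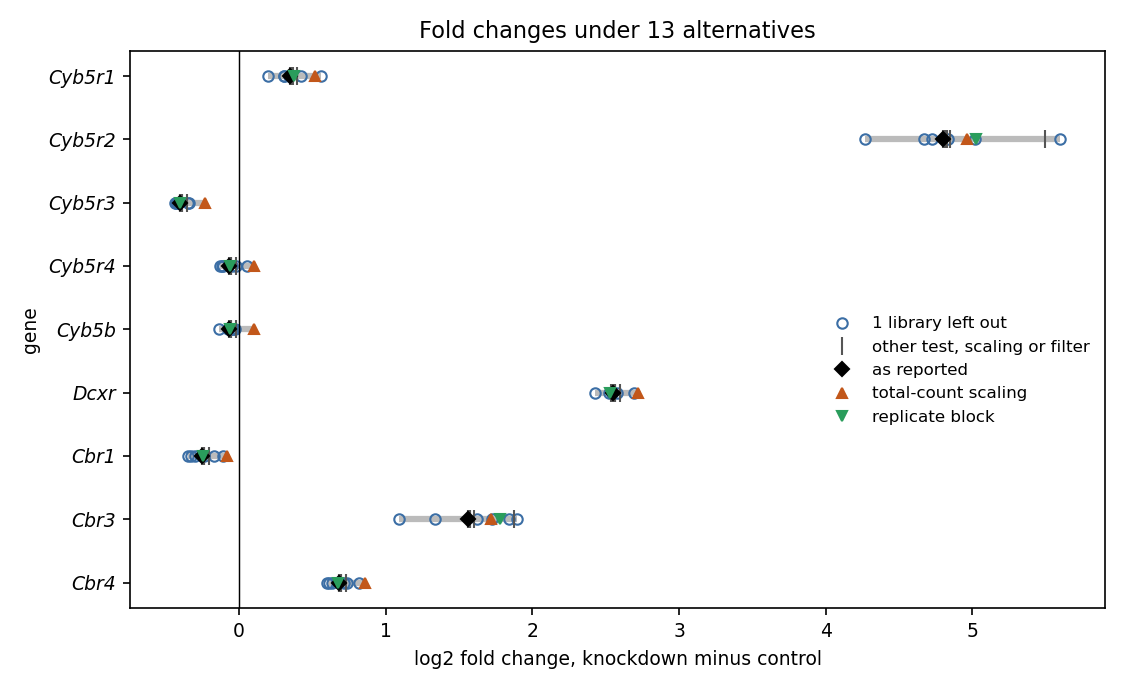
Log2 fold change of each gene, knockdown minus control, as reported (diamonds) and under 13 alternatives: 1 library left out (open circles), total-count scaling, the replicate block, and other tests, scalings or filters (ticks). Cyb5r2 ranges from 4.27 to 5.60 and Cbr3 from 1.09 to 1.90, while Dcxr stays between 2.43 and 2.72.

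The nearest genes on the chromosome were listed for each member, among genes with a row in the count table. Of 16 such neighbours outside the set, 12 were tested, 1 was higher and 2 were lower. Among all tested genes 8.48% were called higher and 12.6% lower, and nothing is read from the few neighbours called. The one that rose was Nfat5, a transcription factor gene of the response to high salt, 105965 bases from Cyb5b, with a log2 fold change of 0.63 ± 0.12 (SE; edgeR adjusted p = 0.00295). Besides Rac3, the adiponectin receptor gene Adipor1, 3640 bases from Cyb5r1, fell by 0.51 on the log2 scale (edgeR adjusted p = 0.0227), a call lost with total counts (-0.34) and without control library 1 or 2 or knockdown library 1 or 3. The neighbours of Cbr4, Sh3rf1 (0.01) and Palld (0.50), and the outer neighbours of the Cbr1 and Cbr3 pair, Setd4 (0.35) and Dopey2 (0.04), were not called.

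The genes with a pattern most like that of Cyb5r2 and Dcxr were found by the Euclidean distance between log2 levels over the 6 libraries, centred on the control mean, among genes that averaged 1 CPM or more. For Dcxr these were Gtse1, a gene of the G2 and S phases of the cell cycle, at a distance of 0.39, the histone gene Hist1h2be at 0.62 and the transcription factor gene Dach2 at 0.66. Gtse1 had 3.34, 2.81 and 4.19 CPM in knockdown libraries 1 to 3, against 0.658, 0.467 and 0.457 CPM in control libraries 1 to 3. For Cyb5r2 they were farther off: the linker histone gene Hist1h1c at 1.96, Cdkn1a, which encodes the cell cycle inhibitor p21, at 2.19, and Cox6a2, a cytochrome c oxidase subunit gene, at 2.56. Cox6a2 had 1.72, 1.20 and 3.08 CPM in the knockdown, against 0.301, 0.0649 and 0.114 CPM in the control. Control means were 0.528 CPM for Gtse1, 0.326 CPM for Dach2 and 0.160 CPM for Cox6a2, so these genes reached an average of 1 CPM through their knockdown libraries. The distances to Cyb5r2 include the spread of its own low control levels, 0.295, 0.169 and 0.0134 CPM in control libraries 1 to 3. Exons of Cdkn1a, Cox6a2 and Hist1h2be overlap another annotated gene, and Hist1h2be belongs to a family of near-identical copies.

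Among partners of the cytochrome b5 system, genes were called in both directions. Of 18 tested genes, 5 rose, 2 fell and 11 were not called, with a median log2 fold change of 0.04. Over all tested genes, 8.48% were called higher and 12.6% lower. The list was chosen with earlier results of these data known, so nothing is read from these counts. Mosc2, the mitochondrial amidoxime reductase that takes its electrons through Cyb5b and a reductase, rose to 48.3 ± 8.68 CPM in the knockdown, against 27.2 ± 0.487 CPM in the control (log2 fold change 0.83 ± 0.13, SE; edgeR adjusted p = 0.00132). Cyb5d2, a heme-binding relative of cytochrome b5, rose by 0.65 (edgeR adjusted p = 0.00376). Fa2h, the fatty acid hydroxylase of myelin lipids, rose by 0.76 (edgeR adjusted p = 0.00453), beside the higher oligodendrocyte markers given above, whose part in it was not tested. Scd2, the main stearoyl-CoA desaturase of brain, fell to 351.6 ± 27.7 CPM in the knockdown, against 479 ± 6.07 CPM in the control (log2 fold change -0.45 ± 0.09, SE; edgeR adjusted p = 0.00376).

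Further members of that list were chosen after their values were seen. Sc4mol, a sterol demethylase, fell by 0.72 (edgeR adjusted p = 0.00696), and Scd1 rose by 0.46 (edgeR adjusted p = 0.0148), a call lost without control library 2 or 3 or knockdown library 1. Mosc1, the second amidoxime reductase, had 34, 23 and 15 counts in the knockdown and 0 in every control library. Taking 3 counts per control library as the floor, which covers counting error only, its mean was at least 7.46-fold higher in the knockdown. Mosc1 passed the low-count filter through its knockdown libraries alone, and it is among the genes of the list counted as higher. Its call was lost with DESeq2 and without knockdown library 1. The microsomal cytochrome b5 gene itself, Cyb5 in the table (now Cyb5a), had a log2 fold change of -0.02, and Por, the reductase of cytochromes P450, one of 0.01, and neither was called. Without knockdown library 1, 3 genes of the list were called higher.

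Among 35 tested carbonyl-reducing enzymes outside the set, 8 rose, 2 fell and 25 were not called, with a median of 0.14. The genes that rose include Ptgr1, at 0.619, 0.364 and 0.892 CPM in knockdown libraries 1 to 3, against 0.00615, 0.104 and 0 CPM in control libraries 1 to 3. Ptgr1 and the uncalled Cbr2 passed the low-count filter with the help of their knockdown libraries, so nothing is read from these counts. Ptgr1 was named after its values were seen. The shares over all tested genes were 8.48% higher and 12.6% lower. Spr, sepiapterin reductase, which completes the cofactor of tyrosine hydroxylase, rose to 39.5 ± 4.72 CPM in the knockdown, against 25.7 ± 0.620 CPM in the control (log2 fold change 0.62 ± 0.12, SE; edgeR adjusted p = 0.00302). Akr1c14, a hydroxysteroid dehydrogenase gene, rose by 1.79 (edgeR adjusted p = 0.0113) and Ptgr2, a prostaglandin reductase gene, by 0.42 (edgeR adjusted p = 0.0126). Akr1a1, the abundant aldehyde reductase, fell to 568.9 ± 38.1 CPM in the knockdown, against 754.8 ± 19.4 CPM in the control (log2 fold change -0.41 ± 0.08, SE; edgeR adjusted p = 0.00469). The call for Akr1a1 was lost with total counts (-0.24). Of these genes 4 were called higher without control library 2, without control library 3 or without knockdown library 3, and 5 without control library 1. Of the lower genes 1 was called lower without control library 1 or 2 or knockdown library 1. With total counts edgeR called 0 lower, where 1 had an unadjusted p under 0.05, while DESeq2 called 3 and limma-voom 2.

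Akr1a1 also makes the substrate that enters the uronate and xylulose pathway, where Dcxr acts. Of 12 tested genes of that pathway, 3 rose, 3 fell and 6 were not called, with a median of 0.08. In the whole fit 8.48% of genes were called higher and 12.6% lower. Xylb, xylulokinase, which acts after Dcxr and the xylitol-oxidising step that follows it, rose to 10.7 ± 1.83 CPM in the knockdown, against 5.37 ± 0.736 CPM in the control (log2 fold change 0.99 ± 0.18, SE; edgeR adjusted p = 0.00299). Taldo1, transaldolase of the pentose phosphate pathway, rose by 0.53 (edgeR adjusted p = 0.00782). Ugdh, which makes UDP-glucuronate, fell by 0.48 (edgeR adjusted p = 0.0126), a call lost with total counts (-0.31) and without control library 1 or knockdown library 1. Sord, sorbitol dehydrogenase, named after its values were seen, catalyses the step between Dcxr and Xylb. It fell to 25.6 ± 0.366 CPM in the knockdown, against 34.1 ± 4.83 CPM in the control (log2 fold change -0.41 ± 0.12, SE; edgeR adjusted p = 0.0301). Its call was lost with total counts (-0.24) and without control library 1 or 3 or any 1 of the 3 knockdown libraries. With total counts 5 genes of this pathway were called higher and edgeR called 0 lower, where 2 had an unadjusted p under 0.05. DESeq2 and limma-voom called 3 lower, and edgeR called 1 lower without control library 1 or knockdown library 1.

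Around Cbr4, 9 genes of mitochondrial fatty acid synthesis were tested, of which 2 rose, 1 fell and 6 were not called (median 0.22). Beside these few calls stand 8.48% higher and 12.6% lower over all tested genes. Mecr, the enoyl reductase of the pathway, rose by 0.54 (edgeR adjusted p = 0.0219), a call lost without control library 2 or 3 or knockdown library 3. Lipt2, a lipoyl transferase gene, rose by 0.60 (edgeR adjusted p = 0.0489) and lost its call in 7 of the 13 alternatives. Ndufab1, the acyl carrier protein, fell to 158 ± 6.30 CPM in the knockdown, against 210.5 ± 21.96 CPM in the control (log2 fold change -0.41 ± 0.10, SE; edgeR adjusted p = 0.0104), a call lost with total counts (-0.25). Without control library 2 or 3, edgeR called 0 genes of the list higher, where 2 and 3 had an unadjusted p under 0.05, while DESeq2 called 2 and limma-voom 1. Hsd17b8 was not analysed here.

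Of 19 tested genes of quinone reduction or associated with the oxidative stress factor NRF2, 6 rose, 4 fell and 9 were not called, with a median of 0.15. Across all tested genes, 8.48% were called higher and 12.6% lower. Hmox1, heme oxygenase, had 30.1, 26.2 and 40.4 CPM in knockdown libraries 1 to 3, against 3.64, 6.48 and 3.31 CPM in control libraries 1 to 3 (log2 fold change 2.85 ± 0.25, SE; edgeR adjusted p = 0.000145). Ephx1, microsomal epoxide hydrolase, rose by 1.90 (edgeR adjusted p = 0.000267) and Gclc, the catalytic subunit of glutathione synthesis, by 0.81 (edgeR adjusted p = 0.000383). Me1, the cytosolic malic enzyme that makes NADPH, fell to 82.0 ± 7.47 CPM in the knockdown, against 139 ± 7.32 CPM in the control (log2 fold change -0.76 ± 0.10, SE; edgeR adjusted p = 0.000504). The other called genes of the list were Gclm, Gsta4 and Gstm1, which rose, and Aifm2, Txnrd1 and Keap1, which fell. The call for Keap1 was lost with total counts (-0.29) and without control library 1 or 2 or knockdown library 1 or 3. That for Txnrd1 was lost with total counts (-0.25) and without knockdown library 1. Nqo1, a quinone reductase (0.17), and Nfe2l2, which encodes NRF2 (0.18), were not called (edgeR adjusted p = 0.488 and 0.507). Both were picked from the uncalled genes of the list after their values were seen. With total counts or without knockdown library 1, 2 genes of this list were called lower. Exons of Me1, Ndufab1, Ptgr2, Aifm2, Keap1, Setd4, Dopey2 and Sh3rf1 overlap a gene on the opposite strand. Those of Ephx1, Scd2, Ugdh and Akr1c14 overlap one on the same strand, and those of Gclm and Satb1 overlap genes on both strands.

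**Figure D5:**
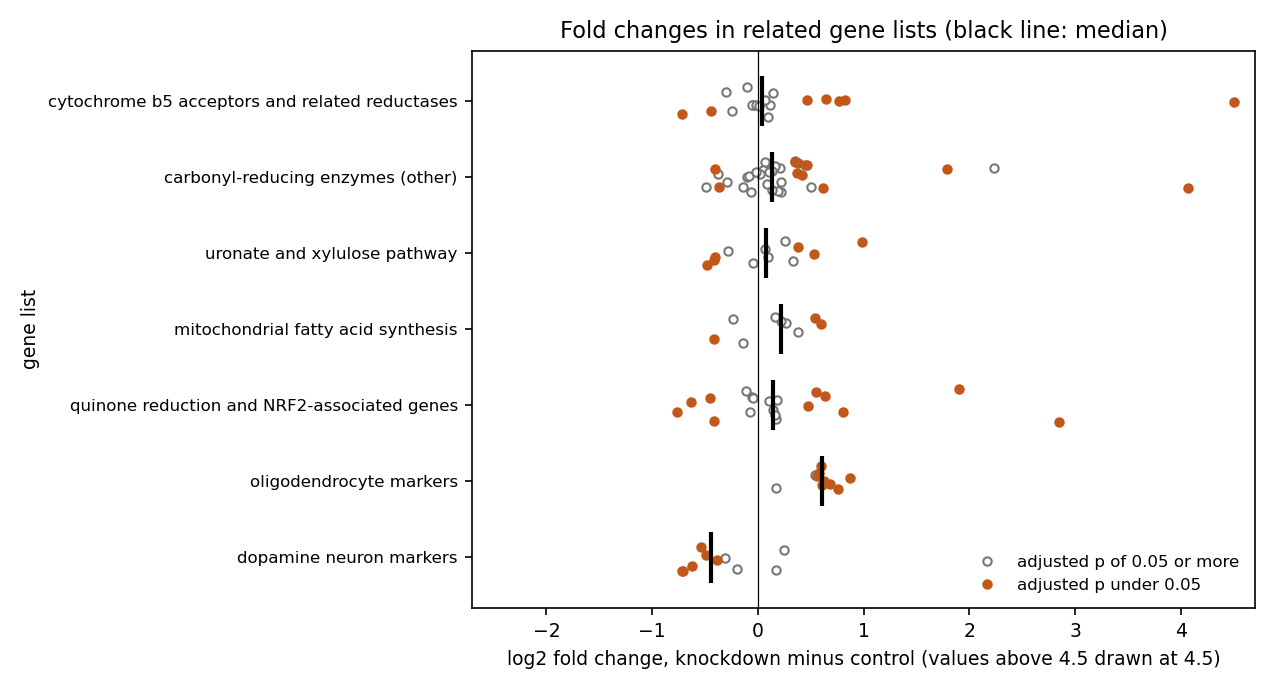
Log2 fold change, knockdown minus control, of each tested gene in 5 related lists and in oligodendrocyte and dopamine neuron markers (filled points, adjusted p under 0.05; black lines, list medians; values above 4.5 are drawn at 4.5). The medians of the related lists lie between 0.04 and 0.22 with genes called in both directions, while the markers of oligodendrocytes have a median of 0.60 and those of dopamine neurons one of -0.44.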

How the data were processed

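For 6 RNA sequencing libraries of mouse midbrain dopaminergic neurons the authors deposited raw counts, as whole numbers for each gene. Per the submitters' processing notes, TopHat2 2.0.8 and mm10 were used. No source used here gives the counting tool, its strand setting or its treatment of multiple alignments. Overlapping and paralogous genes can therefore share reads.

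Groups and replicate numbers came from the sample titles. Counts were scaled by TMM, filtered with filterByExpr (minimum count 10, minimum total 15) and tested in R 4.3.3 with edgeR 4.0.16 (quasi-likelihood, two-sided) and Benjamini-Hochberg adjustment over 16766 genes. Standard errors were derived from the F statistic. The fit was tested on simulated data. Mean chi-square values per gene between replicate libraries were 58.5 to 156, so none was a copy. Poisson intervals and floors cover counting error only.

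Symbols are those of the deposited table, and 23008 of 23079 gene numbers matched RefSeq of GRCm38.p6, which gave coordinates and windows before gene starts (8 of 9 members). Exons and transcript lengths came from GENCODE M21. The members, 10 further gene lists and named genes were chosen with earlier results of these data known. Named genes were the members, at most 4 called genes with the smallest p per list, chromosomal neighbours, Satb1, defining markers, and the 3 genes most like Cyb5r2 or Dcxr (log2 of CPM plus 0.1). The CCAAT motif was added after the sequences were seen, and some further genes were named after their values were seen. Akr1a1 and Akr1b3 are in more than 1 list. Alternatives used RLE or total-count scaling, DESeq2 1.42.0, limma-voom 3.58.1, other filters, a replicate block and each library left out.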

Additional observations from a re-analysis of the deposited data

How the results depend on the processing

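The numbers of genes called over the whole table, 1421 higher and 2115 lower, were 2770 and 972 with total-count scaling, and leaving out 1 library at a time gave 804 to 1356 higher and 1132 to 2054 lower genes (804 and 1132 without knockdown library 1, 910 and 1322 without control library 2). Among the 9 members, 3 or 4 were higher in each alternative. The 1 lower member, Cyb5r3, passed in the other settings, while with total-count scaling edgeR called 0 lower, where 1 had an unadjusted p under 0.05, and leaving out 1 library gave 0 to 1, the lowest without knockdown library 1. DESeq2 and limma-voom each called 1 lower. For same-numbered libraries the correlation of deviations from the group means was 0.0564, 0.0127 and 0.108 for numbers 1 to 3. Each control library correlated best with its own number, as did knockdown libraries 1 and 3. Knockdown library 2 correlated best with control library 1 (0.048). Values this small do not settle whether same-numbered libraries were paired. With the replicate block, edgeR called 1924 genes higher and 2789 lower, and 2 members lower, Cyb5r3 and Cbr1. Of 260 counts of list genes under the alternatives, 215 stayed within 1.5 times and 45 moved further, the cause of which was not tested. Low control counts limit Cyb5r2 and Cbr3, which had 2 and 20 counts in control library 3. The total of that library, 160792736 counts, was close to the 162101571 of control library 2, and the cause of the low counts was not tested.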

Other observations

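Control library 3 was the lowest of the controls for Cyb5r2 and Cbr3, and among 2764 tested genes with a control mean of 0.1 to 1 CPM it was the lowest control for 37.4%, against 30.3% for control library 1 and 32.3% for control library 2. The promoter window of Cyb5b held the reverse complement of CCAAT at 108 to 104 and at 76 to 72 bases before its start.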
